A study of Mus musculus with 2 samples.

Results

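Peaks at the gene of PARIS and at genes linked to Parkinson's disease, not all of them genes of its inherited forms, were examined in a CUT&Tag peak list from mouse hippocampus. The 8 genes were Zfp746, Pink1, Aimp2, Lrrk2, Vps35, Atp13a2, Park7 and Uchl1, chosen by name, and a peak belonged to a gene when the authors' annotation gave that gene's symbol. By this rule 29 of the 99797 peaks in the list belonged to 7 of the genes, and Vps35 counted as having 0. CUT&Tag uses an antibody to bring the transposase Tn5 to the antibody's target on chromatin, where it cuts the DNA and adds sequencing adapters. Both libraries came from untreated C57BL/6J mice of the genotype CamK-PARIS, 1 made with anti-FLAG to capture PARIS and 1 with IgG as the control. The labels give neither the age or number of the mice nor the promoter, tag position or sequence of the CamK-PARIS allele. With 1 library per antibody there was no replicate error and no test between antibodies. Each value therefore describes the anti-FLAG library, and the IgG library entered only through the authors' peak calling.

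PARIS, the product of Zfp746, is a zinc-finger repressor with a KRAB domain whose level is held down by ubiquitination. The kinase PINK1 acts in the removal of damaged mitochondria and marks PARIS for ubiquitination, and AIMP2 is a scaffold of the aminoacyl-tRNA synthetase complex. LRRK2, VPS35 and ATP13A2 act in endosomes and lysosomes. The product of Park7, known as DJ-1, guards against oxidative stress, and UCHL1 is a deubiquitinase abundant in neurons.

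Peaks of the whole list had a median maximum signal of 101 (quartiles 66 and 135) and a median width of 363 bp. Maximum signal is the highest coverage in a peak and total signal is coverage added over its bases, both in the authors' units, whose scaling is not given in the sources used here. Sequencing depth is unknown from these files. Peaks are called constant-height here when total signal reaches 99% of maximum signal times width, and 63.3% of the list did so. Among marker genes, a peak within 1 kb of the gene start was present for 4 of 6 excitatory neuron genes, 1 of 4 in each of the interneuron, oligodendrocyte and microglia lists, 0 of 4 astrocyte genes and 0 of 4 genes of other tissues, beside 39.3% of protein-coding starts. Every marker of the 5 brain cell lists had an assigned peak, as had 1 of the 4 genes of other tissues, so assigned peaks did not separate the brain cell types. More nuclei with signal and more signal per nucleus cannot be told apart in such a tissue library.

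Most of the 8 genes had a peak at the gene start, and for Vps35 and Uchl1 the authors' annotation had given that peak to an overlapping gene on the other strand. An assigned peak was present for 7 of the 8 genes, beside 72.7% of 21938 protein-coding genes. Whatever the assignment, 5 of the 8 gene starts (Zfp746, Pink1, Aimp2, Vps35 and Uchl1) had a peak within 1 kb of the 5′ end of the gene in GENCODE M21, beside 39.3% of protein-coding gene starts. Leaving out constant-height peaks, 4 of the 8 starts had one (all of these but Aimp2), beside 27.8%. The other three genes, Lrrk2, Atp13a2 and Park7, had none there, with the nearest peak 8256, 3904 and 4407 bp away. When starts of all annotated transcripts were counted, 7 of the 8 genes had a peak within 1 kb, all but Lrrk2, beside 47.6% of protein-coding genes. All 8 gene bodies held a peak, beside 63% of protein-coding gene bodies. The median distance from gene start to nearest peak was 268 bp over the 8 genes and 3138 bp over all protein-coding genes. Counts over 8 genes that were chosen by name are descriptions, with no test.

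**Figure D1:**
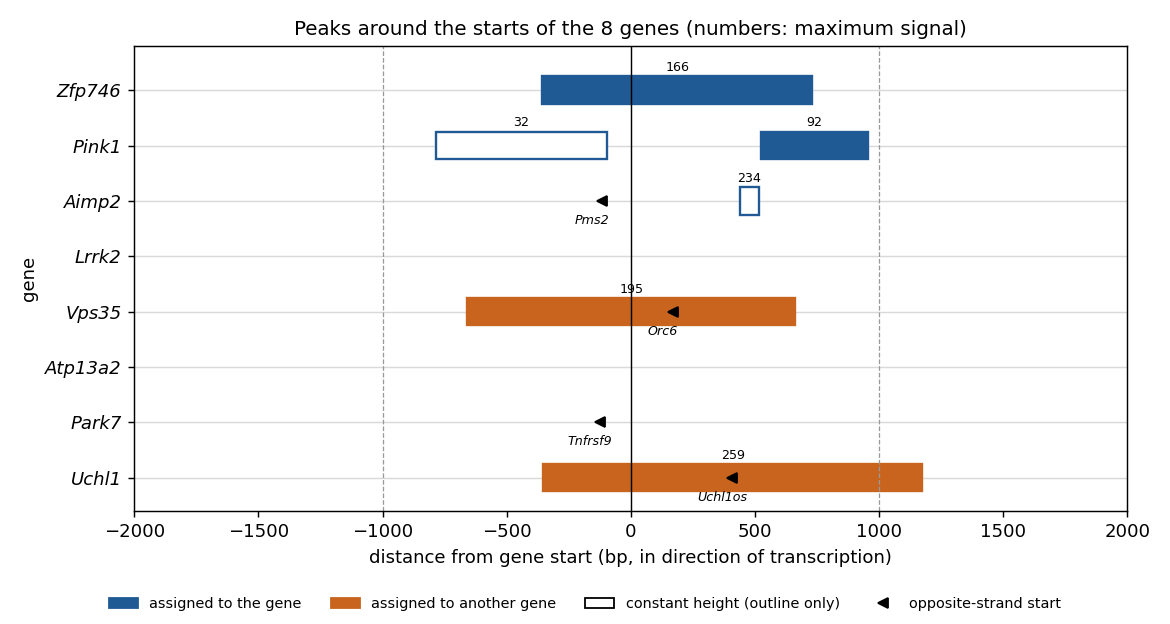
Peaks around the 5′ ends of the 8 genes (x axis, distance from the gene start in bp, positive in the direction of transcription; dashed lines at 1 kb). Each bar is a peak with its maximum signal beside it, blue when assigned to the gene, orange when assigned to another gene and unfilled when of constant height; triangles mark opposite-strand gene starts. Bars cross the start line at Zfp746 (166), Vps35 (195) and Uchl1 (259), of which Vps35 and Uchl1 are in orange, and the rows of Lrrk2, Atp13a2 and Park7 hold no bar.

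The maximum signal of the 29 assigned peaks ran from 32 to 266 with a median of 112, beside 101 for all peaks, and their width from 53 to 1089 bp with a median of 336 bp, beside 363 bp. Constant-height peaks made up 18 of the 29 (62.1%), close to the 63.3% of all peaks. In the authors' classes 8 of the 29 peaks were promoter peaks within 1 kb, a distance that 15.3% of annotated peaks had. Of the others 1 was at 1 to 2 kb, 1 at 2 to 3 kb, 8 were intronic, 3 exonic and 8 distal intergenic. The intronic and exonic classes can refer to a gene other than the assigned one. Whatever the class, 8 of the 29 peaks overlapped an exon of their own gene. The distal intergenic class held 31.9% of all annotated peaks. The gene with the most assigned peaks was Lrrk2 with 8, followed by Pink1 with 5, Zfp746, Atp13a2 and Uchl1 with 4 each, Park7 with 3 and Aimp2 with 1. The median number of assigned peaks per gene was 4 over the 8 genes and 2 over all protein-coding genes, while the mean was lower in the 8 genes, at 3.62 against 3.95. Each gene was also ranked by its tallest assigned peak, as a percentile among all peaks by maximum signal. Every gene without an assigned peak, Vps35 among them, was given 0. The median was 85.4 over the 8 genes and 66.1 over all protein-coding genes. Such a value rises with the number of peaks per gene and with the share of genes that have one. Ranked anew among only the peaks not of constant height, with 0 for genes without such a peak, the medians were 44.8 and 7.89. They are on another scale than the values above and depend on how many genes had such a peak. An assigned peak not of constant height was present for 5 of the 8 genes, beside 51.9% of protein-coding genes.

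**Figure D2:**
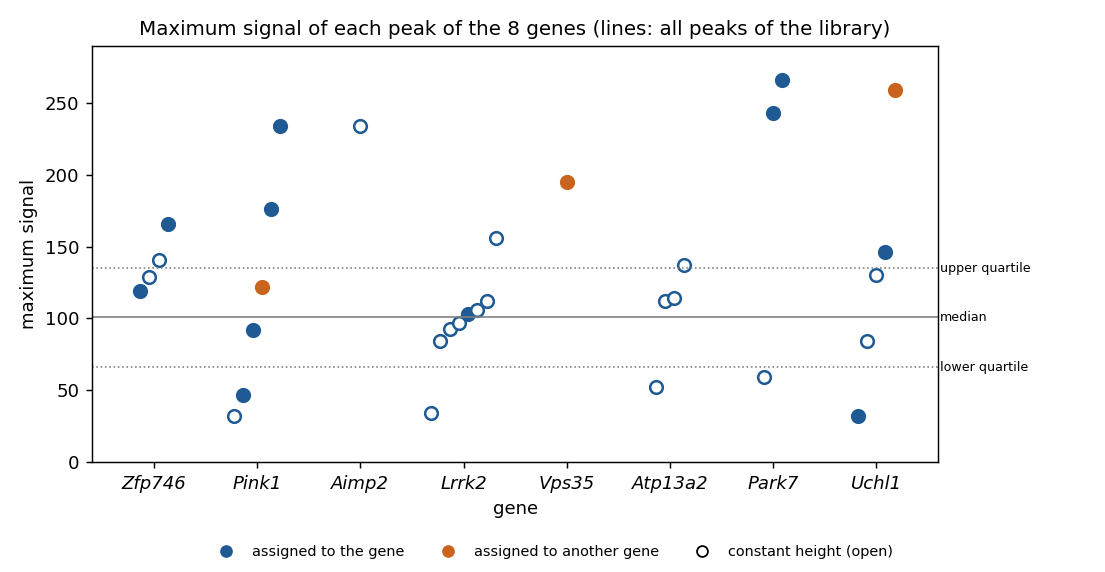
Maximum signal (y axis, authors' units) of each of the 32 peaks that were assigned to the 8 genes or overlapped their bodies or starts, 1 point per peak. Filled points have a peak shape, open points are of constant height, orange points were assigned to another gene, and lines give the median (101) and quartiles (66 and 135) of all peaks. The points of Lrrk2 lie from 34 to 156, while those of Park7 reach 266 and the single point of Vps35 is at 195.

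Zfp746, the gene of PARIS itself (ENSMUSG00000057691, chr6:48062395-48086593, minus strand), had 4 assigned peaks. One overlapped the gene start, at chr6:48085862-48086950, and reached from position -357 to 731 relative to that start, with a maximum signal of 166 (percentile 86.6 of all peaks). Exons held 67.2% of its bases and coding sequence 2.20%. Its total signal of 31709 was 17.5% of a full rectangle, so most of its 1089 bp lay well under the maximum. The region of maximum signal, 81 bp in all, lay 639 bp inside the gene at chr6:48085874-48085954. A second peak at chr6:48083140-48083407 had a constant height of 141 and covered 268 bp, of which 137 were coding bases of 2 neighbouring exons and the rest the intron between them in the coding transcripts of GENCODE M21, an intron that 1 annotated transcript retains. The other two peaks lay outside the gene, one at position -26083 and further upstream at a constant 129, and one beyond the 3′ end with a maximum of 119. Reads from Zfp746 sequence in the CamK-PARIS allele, if it holds any, and from the native gene cannot be told apart.

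Pink1 (ENSMUSG00000028756, chr4:138313409-138326307, minus strand) had peaks on both sides of its start but none across it. Upstream, a wide constant-height peak of 687 bp at chr4:138326405-138327091 began 98 bp from the start and was low, at 32 (percentile 8.04). Downstream, a peak at chr4:138325351-138325783, 524 to 956 bp into the gene and outside its exons, reached 92. The higher peaks of the gene lay further out, with 176 in intron 1 at chr4:138321131-138322052 and 234 at chr4:138330691-138331114, at position -4384 and upstream. A peak of 47 lay in intron 3, and a further peak of 122 near the 3′ end was assigned to the microRNA gene Mir7019, which lies within Pink1. With 4 peaks over its 12.9 kb body, Pink1 had the most peaks per length of the 8 genes, at 31.0 per 100 kb. Pooled over gene bodies, the density was 7.26 per 100 kb in the 8 genes and 5.68 in all protein-coding genes. In a body this short each peak weighs heavily on the density.

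Aimp2 (ENSMUSG00000029610, chr5:143902704-143909847, minus strand) had a single peak, the narrow peak at chr5:143909331-143909409. It was 79 bp wide, began 438 bp inside the gene, outside its exons, and had a constant height of 234 (percentile 94.6), as high as the highest peak of Pink1. Its total signal was 18484, at percentile 37.2 of all peaks. The start of Aimp2 lies 117 bp from that of Pms2, a mismatch repair gene read the other way, and no peak overlapped either this gap or the Aimp2 start.

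The next stretches are the bases under 3 of these start peaks, 5′ to 3′ on the strand of the gene (mm10, read from GRCm38.p6), with CpG dinucleotides in capitals. They are the regions of maximum signal at chr6:48085874-48085954 for Zfp746, chr4:138325518-138325781 for Pink1 and chr5:143909331-143909408 for Aimp2.
Zfp746: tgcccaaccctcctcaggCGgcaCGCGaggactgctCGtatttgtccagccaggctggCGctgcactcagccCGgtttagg
Pink1: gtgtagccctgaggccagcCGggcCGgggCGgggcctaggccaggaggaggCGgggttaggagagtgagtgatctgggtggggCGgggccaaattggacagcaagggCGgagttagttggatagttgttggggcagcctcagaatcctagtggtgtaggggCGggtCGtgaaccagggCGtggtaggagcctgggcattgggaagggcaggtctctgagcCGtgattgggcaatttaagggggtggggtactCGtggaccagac
Aimp2: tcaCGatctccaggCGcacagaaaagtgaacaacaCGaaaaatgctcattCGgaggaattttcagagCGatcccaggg
These hold 6 CpG dinucleotides in 81 bases for Zfp746, 11 in 264 for Pink1 and 5 in 78 for Aimp2, with a GC content of 65.4%, 63.6% and 48.7%. The Aimp2 stretch had the lowest GC content of the 3, and the other two were alike.

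Vps35, the cargo-binding core of the retromer that returns proteins from endosomes (ENSMUSG00000031696, chr8:85260392-85299802, minus strand), had 0 assigned peaks. A wide peak at chr8:85299141-85300460 nevertheless crossed its start, from position -658 to 661, with a maximum of 195 (percentile 90.7) and a total signal of 120154. The authors' annotation gave it to Orc6, a gene of the origin recognition complex on the plus strand, whose start lies 170 bp inside Vps35. The region of maximum signal, chr8:85299675-85299810, spans the Vps35 start, so the peak lies on both starts and cannot be given to 1 of the 2 genes by position. It was the only peak in the 39.4 kb of Vps35, or 2.54 per 100 kb, the lowest density of the 8 genes.

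Lrrk2, a large kinase that phosphorylates Rab GTPases (ENSMUSG00000036273, chr15:91673175-91816120, plus strand), had the most assigned peaks and none near its start. The closest lay 8256 bp upstream with a constant height of 84. The other seven lay in the gene body, from 30141 to 133627 bp downstream of the start, with maximum signals of 34, 93, 106, 97, 103, 156 and 112 in order along the gene. They were unevenly spread: the last 4 lay between 118531 and 133627 bp, near the 3′ end, among them the highest, 156, over exon 42 of 51 at chr15:91796066-91796255. Of the 8 peaks 7 were of constant height. Peaks were about as dense in its 142.9 kb body as in protein-coding gene bodies at large, at 4.90 and 5.68 per 100 kb.

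Atp13a2, a lysosomal polyamine transporter (ENSMUSG00000036622, chr4:140986873-141007330, plus strand), had 4 assigned peaks, each of constant height. Upstream of the gene, one of 137 lay 3904 bp from the start and one of 52 lay at position -10203 and upstream, over an exon of the neighbouring gene Sdhb in the authors' annotation. In the body, a peak of 112 at chr4:141000077-141000500 was called a promoter peak because an internal transcript starts close to it, at an authors' distance of -212. It lay 13204 bp from the gene start. A peak of 114 at chr4:141006925-141007093 lay over the last exons, with 90.5% of its bases in exons. No peak of Atp13a2 was above percentile 76.2.

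Park7 (ENSMUSG00000028964, chr4:150897133-150914437, minus strand) had the highest assigned peaks of the 8 genes. At chr4:150909687-150910030 a peak of 344 bp reached 266 (percentile 96.5), and at chr4:150901816-150902055 one of 240 bp reached 243 (percentile 95.2). Neither was of constant height. The third peak, beyond the 3′ end, had a constant 59. The gene start used above is the most upstream one in GENCODE M21, 125 bp from the start of Tnfrsf9. RefSeq starts Park7 4516 bp further down, at position 150909921, and the peak of 266 overlaps that start. Counted from RefSeq starts, 5 of the 7 genes in the RefSeq promoter table had a peak within 1 kb, beside 34.6% of all its starts, and Park7 was among the 5. Vps35 is not in that table. The peak of 243 overlapped the start of an internal transcript.

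Uchl1 (ENSMUSG00000029223, chr5:66676091-66687234, plus strand) had the largest start peak of the 8 genes, and it was assigned to another gene. The peak at chr5:66675739-66677265 was 1527 bp wide, crossed the start from position -352 to 1174, and had a maximum of 259 (percentile 96.2) and a total signal of 164833, the highest total of the 32 peaks. The annotation gave it to Uchl1os, an antisense transcript that starts 407 bp inside Uchl1, and the region of maximum signal at chr5:66676442-66676528 overlaps that antisense start. The 4 peaks assigned to Uchl1 lay outside the gene, 1 of them upstream at position -21309 with a constant 84 and the other three downstream of its 3′ end at 130, 32 and 146. A count by symbol thus held 4 peaks for Uchl1 without the one on its start.

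**Figure D3:**
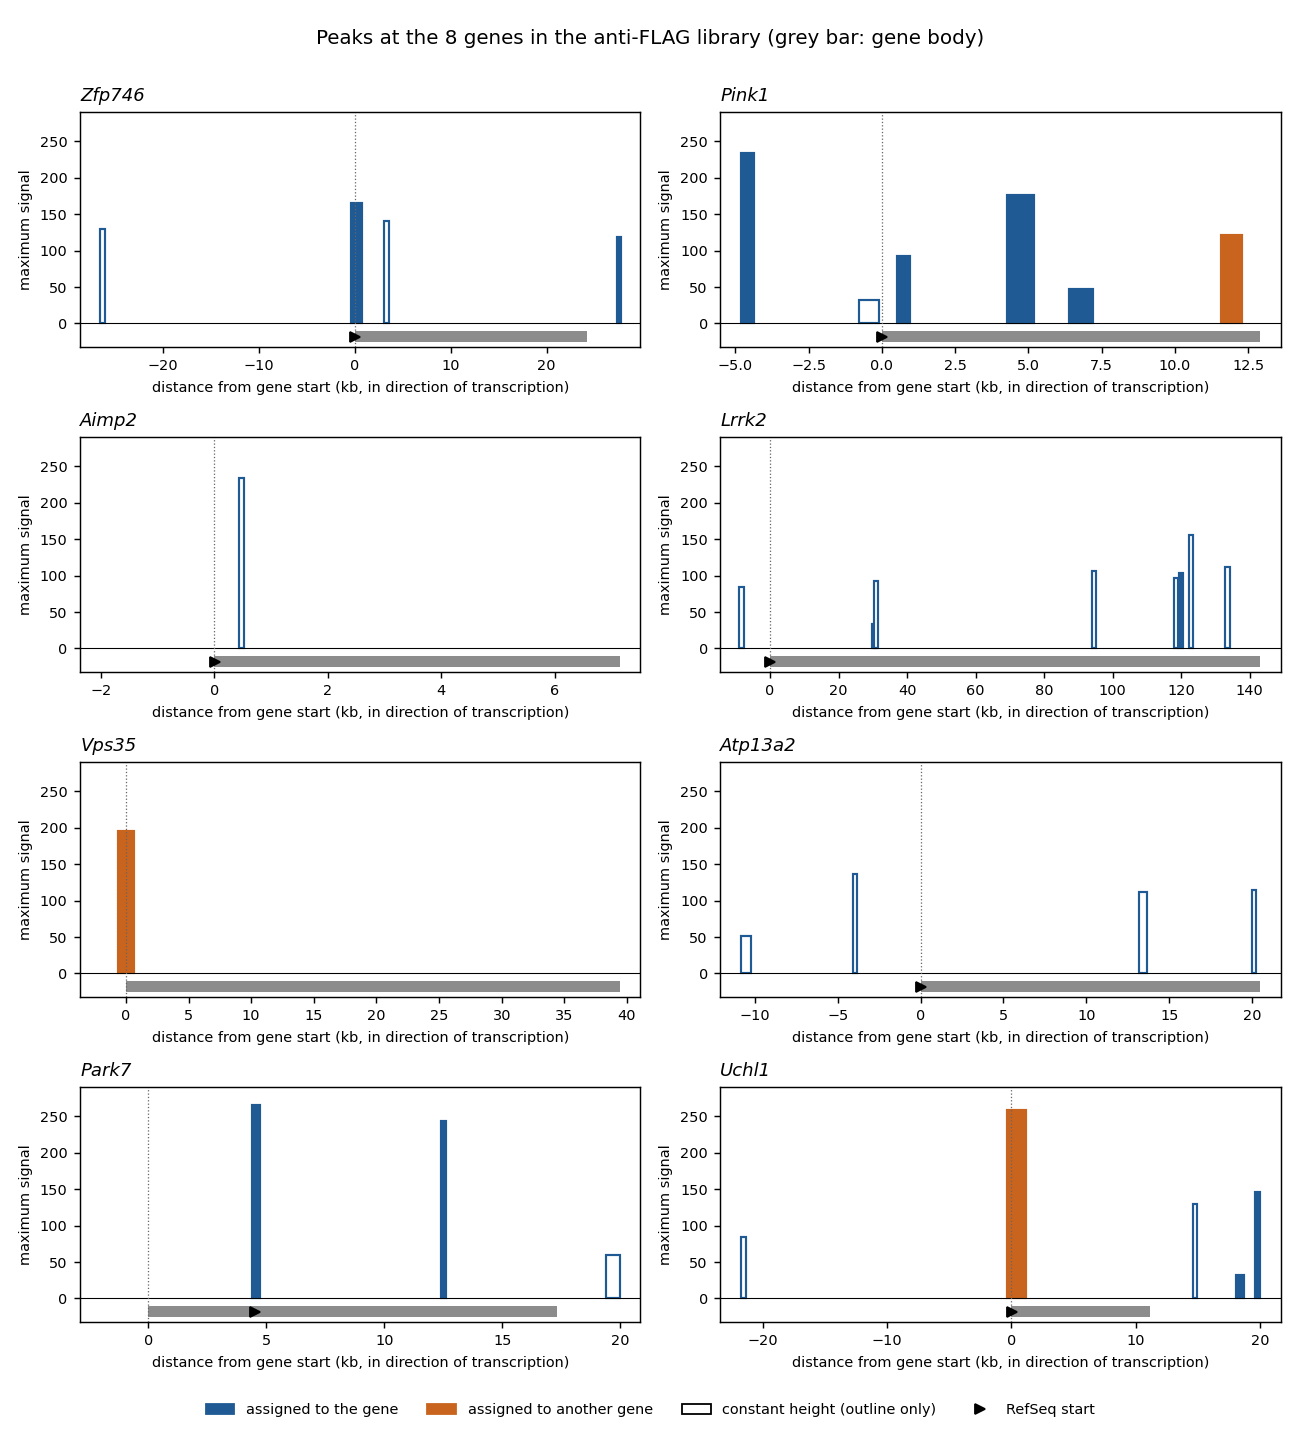
Peaks along the 8 genes (x axis, distance from the gene start in kb in the direction of transcription, with a scale of its own in each panel; y axis, maximum signal in the authors' units). Bars are peaks, widened where too narrow to see, unfilled when of constant height and orange when assigned to another gene; the grey bar is the gene body and the black triangle the RefSeq start. The orange bars at the starts of Vps35 (195) and Uchl1 (259), the Park7 bar of 266 at its RefSeq start and the group of bars near the 3′ end of Lrrk2 stand out.

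The bases at these 3 starts are shown in the same way, for the parts of the peaks without untranslated regions. The Park7 stretch, chr4:150909927-150909993, lies just upstream of the RefSeq start. The Uchl1 stretch is the region of maximum signal, and the Vps35 stretch, chr8:85299993-85300092, is the nearest one of 100 bases to the region of maximum signal and lies upstream of Vps35, inside Orc6.
Park7: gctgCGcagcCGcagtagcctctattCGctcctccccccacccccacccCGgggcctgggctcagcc
Uchl1: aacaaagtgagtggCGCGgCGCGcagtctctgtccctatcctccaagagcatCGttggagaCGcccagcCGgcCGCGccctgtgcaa
Vps35: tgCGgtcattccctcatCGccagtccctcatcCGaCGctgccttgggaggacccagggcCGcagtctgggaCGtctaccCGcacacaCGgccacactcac
They hold 4 CpG dinucleotides in 67 bases for Park7, 9 in 87 for Uchl1 and 8 in 100 for Vps35. In Uchl1, 4 of the 9 stand close together near the 5′ end.

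Among 8631 protein-coding genes with a start peak, the highest start peak had a median maximum signal of 136 (quartiles 92 and 209). Uchl1 at 259 and Aimp2 at 234 were above the upper quartile, Vps35 at 195 and Zfp746 at 166 were between the median and the upper quartile, and Pink1 at 92 was at the lower quartile. By total signal, the Uchl1 peak was at percentile 98.9 of all peaks and the narrow Aimp2 peak at 37.2. For 12% of those genes no start peak carried the gene's own name, as was so for 2 of the 5 genes here. A gene start on the opposite strand lay within 1 kb for 4 of the 8 genes (Aimp2, Vps35, Park7 and Uchl1), beside 18.4% of protein-coding genes. Over all protein-coding genes, 56.8% of starts with such a neighbour and 35.4% of the others had a peak within 1 kb.

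CpG content at the 8 starts was compared in the same way. Over the 1000 bp around the gene start, the ratio of observed to expected CpG was 1.01 for Zfp746, 0.893 for Park7, 0.873 for Vps35, 0.835 for Aimp2, 0.706 for Pink1, 0.689 for Atp13a2, 0.651 for Uchl1 and 0.538 for Lrrk2. The median was 0.717 over protein-coding starts with a peak and 0.320 over those without one. Lrrk2, Atp13a2 and Park7, which had no start peak, were thus above the median of starts without one. For Park7 the ratio was taken at the GENCODE start, while its peak of 266 overlaps the RefSeq start 4516 bp further down. Lrrk2 had the lowest ratio of the 8 genes, and Atp13a2 was above only Uchl1 among the genes with a start peak. The overlap of these ratios in 8 genes gave no clean separation by start peak.

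PARIS has been reported to bind insulin response sequences, searched here as TATTTTT or TATTTTG on either strand in a window of 200 bp centred on each region of maximum signal. Of the 29 assigned peaks 2 held a match, beside 9.97% of all peaks. The peaks within 1 kb of the gene starts held 0 matches in 6 peaks. Of the 7 RefSeq promoters of these genes, 250 bases before to 50 after the start, 0 held a match, beside 11.3% of all RefSeq promoters. Both matching windows are shown with the match in capitals. The first, chr6:48083174-48083373 (minus strand), is from the constant-height peak inside Zfp746. The second, chr5:66690782-66690981 (plus strand), is from a peak downstream of Uchl1.
Zfp746: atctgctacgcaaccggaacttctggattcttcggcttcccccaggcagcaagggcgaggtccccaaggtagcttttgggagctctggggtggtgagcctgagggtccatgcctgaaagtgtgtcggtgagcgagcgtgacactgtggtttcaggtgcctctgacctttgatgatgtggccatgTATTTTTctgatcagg
Uchl1: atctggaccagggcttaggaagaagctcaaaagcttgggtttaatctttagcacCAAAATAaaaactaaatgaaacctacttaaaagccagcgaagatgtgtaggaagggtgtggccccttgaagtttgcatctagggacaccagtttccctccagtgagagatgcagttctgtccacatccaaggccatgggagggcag
The Zfp746 match, at positions 48083183 to 48083189, lies outside the coding exons of GENCODE M21 but inside a longer coding exon of some RefSeq transcripts. The Uchl1 match is on the minus strand, 3′ of the gene and outside coding sequence. Both peaks were of constant height, at 141 and 130. The authors classed the Zfp746 peak as a promoter peak within 1 kb, at -863 from the start of an internal transcript. In windows of 400 bp 4 of the 29 held a match, beside 19.3% of all peaks, and in whole peaks 4 did, beside 17.7%.

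Among 20 other genes of inherited or associated Parkinson's disease, 18 had an assigned peak, beside 72.7% of protein-coding genes. A peak within 1 kb of the gene start was present for 10 of the 20 (50%), beside 39.3% of protein-coding starts, and with so few genes nothing is read from that gap. The highest start peaks were at Mapt (512), the gene of tau, Synj1 (320), a synaptic vesicle phosphatase, Vps13c (183), Gigyf2 (157) and Dnajc13 (135). The Synj1 start peak was not assigned to Synj1.

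In the PINK1 pathway with PARIS partners, 6 of 16 genes had a start peak. They were Vdac1 (487), a mitochondrial outer membrane channel, Sqstm1 (194), an autophagy receptor, Parp1 (97), Rhot1 (79), Tbk1 (74) and Stub1 (44). Ppargc1a, the coactivator gene that PARIS is known to repress, had 18 assigned peaks, but only 1 peak of the list overlapped its gene body. The nearest peak lay 40182 bp from its start, and none lay within 1 kb of any of its transcript starts. Of 14 LRRK2 and retromer partners 7 had a start peak, the highest at Rab10 (390), a LRRK2 substrate, and at the retromer subunits Vps26a (202) and Vps26b (173). Vps26b, like Vps35, had 0 assigned peaks, so both retromer genes owed their start peak to the search by position. The AIMP2 synthetase complex had 4 of 10, led by Dars (99) and Aimp1 (93), the relatives of UCHL1 and ATP13A2 had 4 of 8, led by Uchl5 (233) and Bap1 (175), and the zinc-finger genes near Zfp746 had 4 of 7, at Zfp212 and Zfp956 (121 each), Zfp398 (110) and Zfp777 (107). Zfp746, at 166, had a higher start peak than these 4 neighbours. The Uchl5 start peak was not assigned to Uchl5. Without constant-height peaks, 5 of 16 PINK1 pathway genes and 5 of 14 LRRK2 and retromer partners kept a start peak. So did 1 of 10 synthetase complex genes, 2 of 8 relatives of UCHL1 and ATP13A2 and 2 of 7 zinc-finger genes. For the other Parkinson genes it was 9 of 20, and over all protein-coding starts 27.8%.

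**Figure D4:**
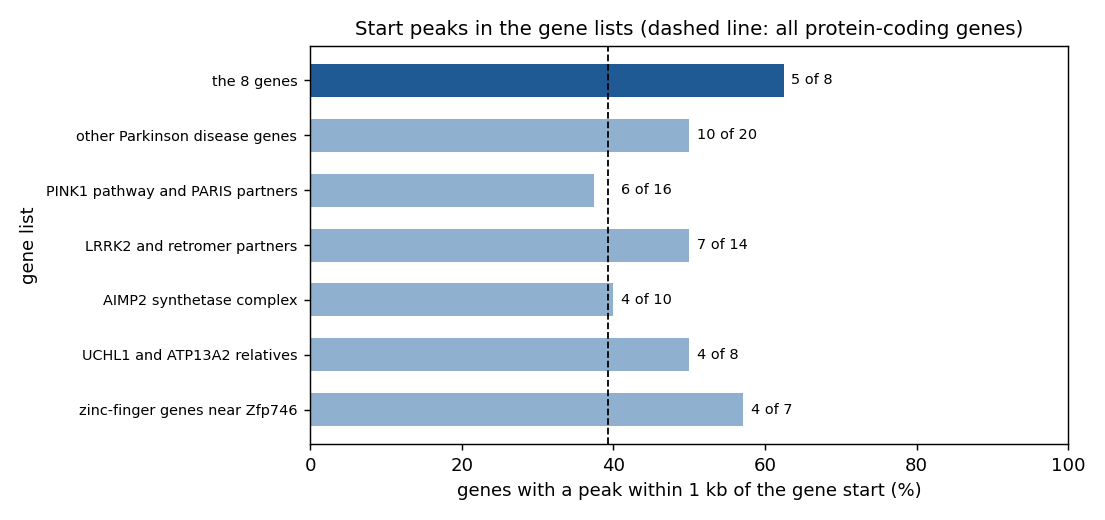
Share of genes with a peak within 1 kb of the gene start (x axis, percent) in the 8 genes and in 6 lists of related genes, with the counts beside the bars. The dashed line is the share over all protein-coding genes, 39.3%. The PINK1 pathway list, 6 of 16, lies just below it, and the other lists and the 8 genes lie above it.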

How the data were processed

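Per the labels' protocols, trimmed read pairs were mapped to mm10 by Bowtie2. Duplicates and alignments of low quality were dropped, and SEACR made the peak list with IgG as its control. No versions or SEACR settings are given in the sources used here. The deposited peak list holds, as signal per peak, the total and maximum coverage, and a second deposited table gives each region of maximum signal an annotation class, a gene symbol and a signed distance to a transcript start. Total signal was identical in both files for all 99782 annotated peaks.

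Genes, transcripts and untranslated regions came from GENCODE M21 and sequences from GRCm38.p6, both of the mm10 build. Peaks overlapping the 1 kb on either side of the 5′ end of a gene were start peaks, whatever their assignment. Symbols were matched to protein-coding genes by name or Ensembl ID, and all genes of the 6 lists but Zfp783 and Zfp862 were matched. The overlap and motif searches were tested on simulated data. Python 3.11.15, pandas 2.3.3 and pysam 0.24.0 were used. Genes named are the 8 genes, genes given a peak in their bodies or at their starts, up to 5 genes per list with the highest start peak, and Ppargc1a as a key gene; Stub1, Sdhb, Pms2 and Tnfrsf9 were added after their values were seen. The 8 genes and all lists were chosen with earlier results of these data known. Some genes of the lists count in the totals but are not reported here.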

Additional observations from a re-analysis of the deposited data

How the results depend on the processing

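The 6 counts and medians were recomputed under 45 alternatives, of which 21 kept a count within 1.5 times its first value and 24 moved a count further or moved the median percentile. With 1 library no replicate could be left out, and no paired analysis was possible because each antibody has 1 library. The RefSeq start was chosen after seeing the data.

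Kept to the top 10% by maximum signal, 4 peaks were assigned to 3 genes, 3 gene starts (Aimp2, Vps35 and Uchl1) and 2 of the other Parkinson genes had a peak, 0 peaks held the insulin response sequence and the median percentile was 0. Kept to the top 10% by total signal, 0 peaks were assigned to 0 genes, 2 gene starts (Vps35 and Uchl1) and 4 of the other Parkinson genes had a peak, 0 peaks held the sequence and the median percentile was 0. These sets hold fewer peaks by construction. The shares of all protein-coding genes and starts were not computed in these sets, so nothing is read from their counts. In every narrower set percentiles were ranked anew among the kept peaks. They are not on the scale of the full list, and a median can move by the new scale alone. Above the median maximum signal, 18 peaks were assigned and the median percentile was 70.8 (32.0 over all protein-coding genes). Peaks at least 200 bp wide gave 18 assigned peaks, 1 with the sequence and a median percentile of 69.5 (53.7 over all). Both of these sets also hold fewer peaks by construction. The shares over all peaks and genes are not given for them, so nothing is read from their counts. Without constant-height peaks there were 11 assigned peaks, 0 with the sequence and a median percentile of 44.8 (7.89 over all). In both top sets the median over all was also 0. The median percentile was 76 by total signal (66.8 over all) and 90.6 by total signal over width (66.1), and 4 peaks held the sequence in windows of 400 bp (19.3% of all peaks did) or in whole peaks (17.7%). The causes were not tested. Depth is unknown, so sites below the authors' threshold were not detectable here.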
